A study of Homo sapiens with 8 samples.

Results

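The early G1 binding sites of ORCA were compared with methylated DNA in U2OS cells, a human osteosarcoma cell line. The list of ORCA sites came from chromatin immunoprecipitation and sequencing (ChIP-seq) of U2OS cells synchronized in early G1. The list of methylated sites came from methylated DNA immunoprecipitation and sequencing (MeDIP-seq) of U2OS cells whose labels name no cell cycle stage. Each is 1 sample, with an input sample that was not analysed here, so that no difference could be set against a spread between replicates. The labels name no treatment and no genetic change in any group used here, and do not say how the cells were synchronized. Of 10740 early ORCA peaks, the 10640 at chromosomes 1 to 22 were used, out of 98024 peaks in the 4 lists of the series. They were split into 3753 peaks that shared at least 1 bp with one of the 73054 MeDIP peaks on these chromosomes and 6887 that shared none. The share with a MeDIP peak was 35.3% of all early peaks, with a 95% Wilson interval of 34.4 to 36.2. Intervals cover counting error only, neighbouring peaks are not independent, and the sources used here do not give the read depth of either library. Positions are in hg19, counted from 1, and genes were not assigned to them.

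ORCA (LRWD1) carries WD repeats and binds the origin recognition complex, which marks the places where replication can start, and helps to hold it at chromatin. It is known for its association with heterochromatin, in which histone H3 is methylated at lysine 9 and DNA is often methylated at CpG. CpG methylation in human cells is spread through gene bodies and repeats and is kept low at most active promoters. The antibody used in MeDIP binds methylated cytosine, so that a peak marks a stretch where methylated CpG is dense, and sparse methylation may give no peak. The peak lists hold no value that could check what either antibody pulled down.

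Where an ORCA and a MeDIP peak met, most of the ORCA peak usually lay in methylated DNA. The median overlapping ORCA peak had 94.0% of its length inside MeDIP peaks (interval of the median 91.6 to 96.2), with 54.5% at the lower and 100% at the upper quartile. In bases, the median overlap was 581 bp, with quartiles of 402 and 918 bp. An overlap was thus rarely a touch of the edges. The ORCA peak lay wholly within a single MeDIP peak in 1700 cases, 45.3% of those that overlapped. In these cases the ORCA peaks had a median width of 627 bp and the MeDIP peaks around them one of 2650.5 bp. A single MeDIP peak covered part of the ORCA peak and ran past one of its edges in 1463 cases (39.0%), with a median of 407 bp shared. A MeDIP peak lay within a wider ORCA peak in 204 cases (5.44%), and 386 ORCA peaks (10.3%) met more than 1 MeDIP peak. The latter were wide, with a median of 1496.5 bp.

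The midpoint of the ORCA peak was inside a MeDIP peak for 2926 of the 3753 overlapping peaks (78.0%). The centres of the ORCA peak and of the MeDIP peak with the longest overlap were a median of 463.5 bp apart. MeDIP coverage was nearly flat along the ORCA peaks, which were scaled to one length and read at 20 positions. It was 73.1% and 74.6% at the outermost positions and 77.9% at the middle. In overlapping ORCA peaks under 500 bp it was 83.1% at the left edge and 82.1% in the middle, while in those of 1000 bp or more it was 63.2% and 75.4%. A higher coverage in the middle was therefore seen in the wide peaks and not in the narrow ones.

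**Figure D1:**
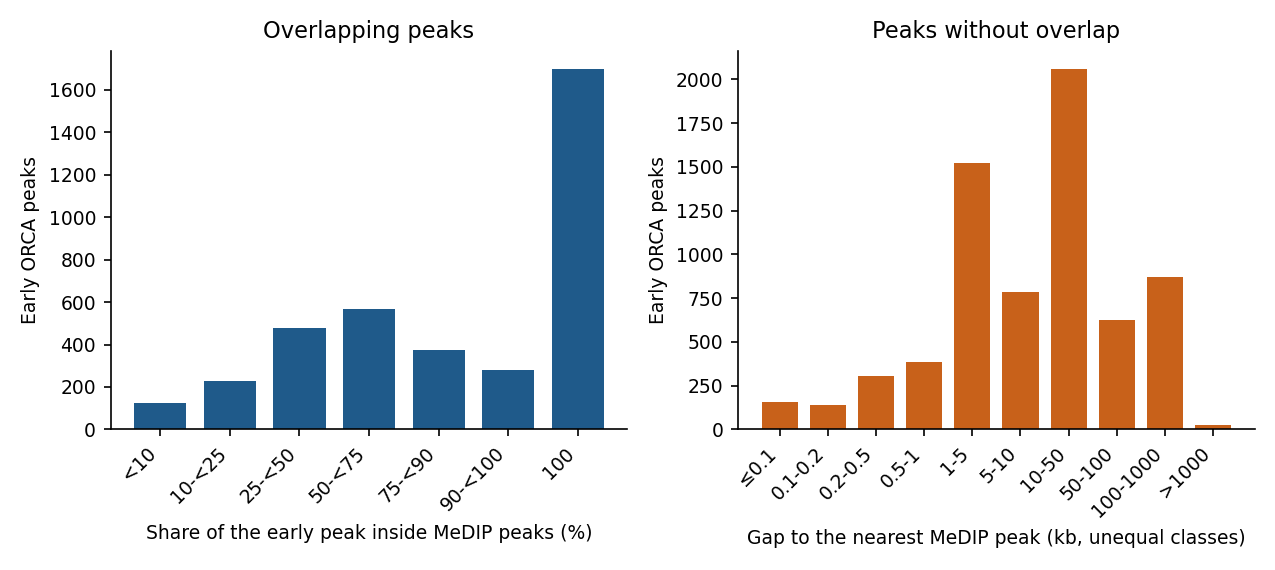
Number of early ORCA peaks by the share of the peak inside MeDIP peaks (left, overlapping peaks, in percent) and by the gap to the nearest MeDIP peak (right, peaks without overlap, in kb, in classes of unequal size). The tallest bar on the left is the 1700 peaks that are wholly covered, and on the right the 2060 peaks with a gap of 10 to 50 kb.

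Early ORCA peaks without a MeDIP peak were mostly far from one compared with their own width. Their median gap to the nearest MeDIP peak was 11395 bp (interval 10547 to 12152), with quartiles of 2454 and 42452 bp. A gap of at most 1 kb was found for 993 peaks, 14.4% of those without overlap, and 77.9% lay within 50 kb of one. Between 100 kb and 1 Mb there were 872 peaks, and 27 peaks lay more than 1 Mb away. Peaks close to a MeDIP peak without reaching it were somewhat wider than distant ones: the median width was 619 bp at a gap of up to 100 bp and 464 bp at a gap of 100 kb to 1 Mb. The share of these peaks that overlapped a mid G1 ORCA peak was 33.3% in the nearest class and 9.98% at 100 kb to 1 Mb. An end of chromosome 7 (its first 7 Mb) and one of chromosome 8 (beyond 140 Mb), both dense in early ORCA peaks, held 25.2% of the nearest class and 0.459% of the distant one. Outside them the widths were 542 and 463 bp, and the mid G1 shares 28.6% and 10.02%.

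At the threshold of 1 bp the 2 groups run into each other. The least overlap was 1 bp, in a peak of 899 bp at chr7:885743-886641. It was followed by 2 bp at chr18:74323536-74323943 and 3 bp at chr15:59178284-59178726. Just outside the threshold, peaks at chr9:140158984-140159465 and at chr10:73757437-73757888 adjoined a MeDIP peak with 0 bp between, and 1 bp separated the peak at chr1:17269405-17270263. There were 166 peaks with an overlap of at most 100 bp and 159 with a gap of at most 100 bp, out of 10640.

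The ORCA peaks that ranked highest in both lists together included large methylated blocks bound at all stages of G1. The rank of a peak is given as a percentile of its own list by score, with 100 the highest. At chr1:161429962-161442626, a peak of 12665 bp with the highest ORCA score, 3100, had 10982 bp inside 3 MeDIP peaks. At chr6:107389730-107392236, a peak of the same score had 94.0% of its 2507 bp in a MeDIP peak. Both of these positions also had a mid and a late G1 ORCA peak, as did those at chr20:26188563-26190682, chr8:144996371-145005412, chr7:157939223-157941988 and chr7:56437789-56440908, and chr13:113761143-113763754. Of these 7, the peaks on chromosome 8, on chromosome 13 and at 56437789 of chromosome 7 lay wholly in methylated DNA. The 3 that ranked above them had MeDIP peaks of still higher score and lay at chr22:25760337-25764382, at chr7:6684862-6688083 and at chr2:10152543-10153621, with ORCA percentiles of 97.8, 97.7 and 96.8 and MeDIP percentiles of 99.8, 99.8 and 99.9. All but the ones at chromosomes 22 and 2 overlapped a late G1 peak, and all 10 overlapped a mid G1 peak. Of all early peaks with a MeDIP peak, 55.2% overlapped a mid and 15.0% a late G1 peak. The 10 were picked by score, and in the highest of 5 equal parts of the early list by score the mid share was 81.5%. Among peaks of 3000 bp or more with a MeDIP peak, 90.9% overlapped a mid and 52.9% a late G1 peak.

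The longest stretches shared by ORCA and methylated DNA were few and wide. The longest was at chr1:161410417-161429420, next to the block named above, with 17178 of 19004 bp inside 4 MeDIP peaks. The neighbouring block itself was second, with its 10982 bp. The third and the fourth lay at the ends of the long arms of chromosomes 10 and 4. There the peak at chr10:135477832-135490241 had 10056 bp and the peak at chr4:190995406-191007369 had 9728 bp inside 8 MeDIP peaks each. A peak of 16731 bp at chr19:36783424-36800154 met 7 MeDIP peaks but was covered for 35.8% of its length, and no mid or late G1 peak overlapped it. On chromosome 4 the neighbouring peak at chr4:191007426-191014511 met 4. Most overlapping ORCA peaks, 3367 of 3753, met a single MeDIP peak.

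Of the 16 early ORCA peaks with a score of 3100, 5 overlapped a MeDIP peak, near the 35.3% of all early peaks. Of these 16, 10 lay in runs of narrow peaks, and 1 of the 10 overlapped, against 4 of the other 6. By position, the first 5 such peaks without one all lay on chromosome 1 between 52840927 and 52859564, at gaps of 1715 to 19711 bp, and all overlapped a mid G1 peak. They belong to a run of 15 narrow peaks, a run being at least 4 peaks under 1 kb wide, with a score of at least 100 and at most 20 kb between neighbours. There were 10 such runs with 83 peaks in the early list. A MeDIP peak was found at 11 of these 83 (13.3%, interval 7.56 to 22.2), and 5 of the 11 lay in a single run at chr17:40265502-40273496. In 7 of the 10 runs no peak overlapped a mid G1 peak. Among these were 12 peaks at chr6:88311362-88376985, none of which had a MeDIP peak. Leaving out all runs moved the overall share to 35.4%.

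Outside the runs, the highest-scoring early peaks without a MeDIP peak were at places bound throughout G1 in 4 of 5 cases. They lay at chr1:236260128-236260911 and at chr16:90060737-90062936, both with a score of 3100, and at chr8:579130-581257, with 2705. The peak at chr21:9838667-9842488 had a score of 1814. These 4 overlapped a mid and a late G1 peak, and their gaps to the nearest MeDIP peak were 3167, 1240, 1958 and 12292 bp. The other one, at chr11:79698445-79700752 with a score of 2353, overlapped neither stage and was 251025 bp from the nearest MeDIP peak. Of all 6887 early peaks without a MeDIP peak, 311 overlapped both a mid and a late G1 peak. These 5 were picked by score, and mid G1 overlap rose with score. In the highest of 5 equal parts of the early list by score, 57.3% of peaks without a MeDIP peak overlapped a mid G1 peak.

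The peaks farthest from a MeDIP peak were narrow and of low to middling score. The first and second lay at chr4:60342373-60342794 and chr4:60091107-60091582, at 2.04 and 2.03 Mb from a MeDIP peak. The others were at chr12:60654357-60654688, at 1.93 Mb, chr21:24273463-24273885, at 1.75 Mb, and chr8:112770782-112771272, at 1.62 Mb. Their widths were 332 to 491 bp, and their score percentiles 4.01 to 73.8. The first overlapped a mid G1 peak, and the other 4 overlapped neither later stage. Chromosome 4 held 11 of the 27 early peaks that were more than 1 Mb from a MeDIP peak, and 271 of all 10640 early peaks. Its MeDIP peaks were the sparsest of chromosomes 1 to 22, at 12.4 per Mb.

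The share of early ORCA peaks with a MeDIP peak differed widely between chromosomes. It was highest on chromosome 13, where 73 of 108 peaks overlapped (67.6%, interval 58.3 to 75.7). Chromosome 7 followed with 915 of 1603 (57.1%, interval 54.6 to 59.5) and chromosome 8 with 641 of 1298 (49.4%, interval 46.7 to 52.1). It was lowest on chromosome 21, with 22 of 152 (14.5%, interval 9.76 to 20.9), chromosome 4, with 46 of 271 (16.97%, interval 12.97 to 21.9), and chromosome 3, with 49 of 264 (18.6%, interval 14.3 to 23.7). The share was below 30% on 15 of the 22 chromosomes. The intervals of neighbours in this order overlap, except those of chromosomes 7 and 8 and of chromosomes 8 and 22.

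**Figure D2:**
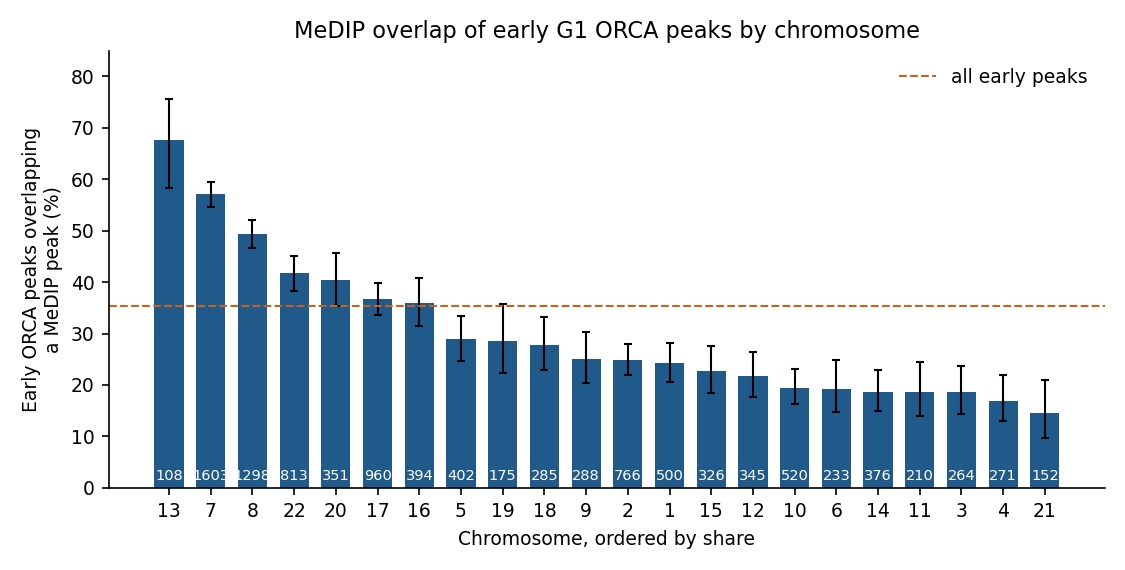
Share of early ORCA peaks with a MeDIP peak on each chromosome, in percent, with 95% Wilson intervals as error bars and the number of early peaks at the foot of each bar. The dashed line is the share over all early peaks, 35.3%, and the bars go from 67.6% on chromosome 13 to 14.5% on chromosome 21.

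Early peaks were unevenly placed on the chromosomes with the highest and the lowest share. On chromosome 13, 97 of the 108 early peaks lay between 112 and 116 Mb, close to the end of the long arm, and 68 of them overlapped (70.1%, interval 60.4 to 78.3). The bin from 114 to 115 Mb had 39 of 47 peaks in methylated DNA. On chromosome 21, 79 of 152 early peaks lay between 9 and 12 Mb. Of these, 16 overlapped, and none of the 28 peaks from 10 to 11 Mb did, where the MeDIP list held 6 peaks. On the rest of chromosome 21 the share was 8.22% of 73 peaks (interval 3.82 to 16.8).

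The overlapping peaks of chromosomes 7 and 8 were concentrated at one end of each, where early ORCA peaks are dense. The first 7 Mb of chromosome 7 held 1213 early peaks, of which 808 overlapped (66.6%, interval 63.9 to 69.2), and chromosome 8 from 140 Mb on held 896, of which 573 overlapped (64.0%, interval 60.8 to 67.0). On the rest of chromosome 7 the share was 27.4% of 390 peaks, and on the rest of chromosome 8 it was 16.9% of 402. Together these dense ends carried 36.8% of all early peaks with a MeDIP peak and 10.6% of those without. Without them the share over the other 8531 early peaks was 27.8% (interval 26.9 to 28.8).

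Overlap was more frequent towards the outermost peaks of chromosomes, which are not always at a chromosome end. On chromosome 21 the first early peaks lay between 9 and 12 Mb. Within 5 Mb of the outermost peaks of a chromosome, taken over the 4 lists, 60.1% of 3503 early peaks had a MeDIP peak, against 23.1% of 7137 peaks farther in. On the other 20 chromosomes, without 7 and 8, these shares were 50.1% of 1745 and 22.1% of 5994 peaks. The share was higher near the outermost peaks on 19 of these 20, and chromosome 18, with 24.1% of 83 against 29.2% of 202, was the exception. On chromosome 1 the shares were nearly equal, 24.4% of 45 and 24.2% of 455. Among 1 Mb bins with at least 20 early peaks, high shares were found from 79 to 80 Mb of chromosome 17 (63 of 84 peaks), from 61 to 62 Mb of chromosome 20 (58 of 78) and in the first Mb of chromosome 5 (20 of 27). Bins farther in could also have a high share, as from 69 to 70 Mb of chromosome 5 (14 of 21, with 29 MeDIP peaks). From 14 to 15 Mb of chromosome 18 it was 20 of 35, with 24 MeDIP peaks. Other dense bins had little overlap. From 57 to 58 Mb of chromosome 17 it was 2 of 42 early peaks and from 39 to 40 Mb of chromosome 4 it was 1 of 20.

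The overlap moved with the local number of MeDIP peaks. In 1 Mb bins with at most 9 MeDIP peaks, 127 of 1546 early ORCA peaks overlapped one (8.21%, interval 6.95 to 9.69). The share was 19.3% in bins with 10 to 24 MeDIP peaks, 26.8% with 25 to 49 and 31.8% with 50 to 99. In bins with 100 or more it was 61.0% of 3545 peaks (interval 59.3 to 62.6), and 52.6% of the 1619 that lay outside the dense ends. More MeDIP peaks in a bin leave more room for an overlap, whatever ORCA binds. A high number did not always go with overlap: the bin from 2 to 3 Mb of chromosome 1 had 195 MeDIP peaks, and 2 of its 20 early ORCA peaks overlapped one. Across the 22 chromosomes, the share with a MeDIP peak and the MeDIP peaks per Mb had a Pearson r of 0.17 and a Spearman rho of 0.27. Without chromosome 13, which had the highest share, they were 0.35 and 0.41. With early ORCA peaks per Mb in place of MeDIP peaks r was 0.42 and rho 0.46, and without chromosome 13 they were 0.65 and 0.68. Without chromosomes 7 and 8, r and rho were 0.31 and 0.36 for early ORCA peaks per Mb. For MeDIP peaks per Mb they were then 0.29 and 0.37. These points share the 2 lists, and chromosome 19, with 91.4 MeDIP peaks per Mb, had a share of 28.6%.

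The surroundings of the 2 groups of ORCA peaks also differed, out to the farthest distance measured, 500 kb. MeDIP peaks covered 2.78% of the span of chromosomes 1 to 22 between their outermost peaks. At 5 to 10 kb from the edges of ORCA peaks with a MeDIP peak, they covered 31.4% of bases, against 7.91% around ORCA peaks without one. At 50 to 100 kb the values were 22.9% and 7.96%, and at 200 to 500 kb 19.0% and 7.51%. Outside the dense ends of chromosomes 7 and 8 the same distances gave 23.5% and 6.15%, 14.5% and 5.81%, and 12.5% and 5.50%. Coverage thus fell with distance around overlapping peaks and stayed nearly level from 2 kb on around the others. The values nearest to the peak, 56.7% and 4.20% within 1 kb, are partly set by the split itself, and bases near several ORCA peaks were counted for each.

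**Figure D3:**
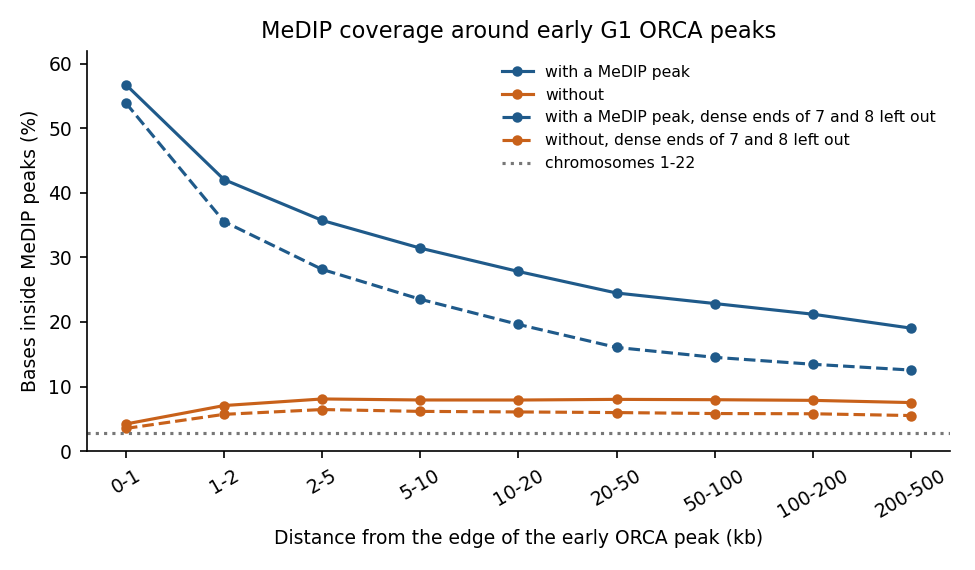
Percent of bases inside MeDIP peaks by distance from the edge of the early ORCA peak, in kb, for peaks with and without a MeDIP peak. Solid lines are all early peaks, dashed lines leave out the dense ends of chromosomes 7 and 8, and the dotted line is the value for the span of chromosomes 1 to 22, 2.78%.

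Neighbouring ORCA peaks tended to be of the same kind. Among 4073 pairs of successive early peaks at most 10 kb apart, both overlapped a MeDIP peak in 1706, neither did in 1261 and 1 of them did in 1106. The neighbour of an overlapping peak overlapped in 75.5% of cases, and the neighbour of a peak without overlap in 30.5%. Outside the dense ends these values were 69.0% and 24.5%. Overlapping peaks also had closer neighbours: 72.4% had another early peak within 10 kb, against 37.3% of the peaks without overlap, and 57.1% against 30.8% outside the dense ends. When peaks within 10 kb were joined, 28.0% of 6567 regions held a MeDIP peak. It was 19.4% of the 5352 regions of a single peak, which had a median width of 488 bp. Of the 79 regions of 10 or more peaks, with a median width of 55987 bp, 78 did. A joined region includes the stretches between its ORCA peaks, so that a wide one has more room to hold a MeDIP peak.

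ORCA peaks in methylated DNA were wider than the others. The median width was 773 bp with a MeDIP peak (quartiles 523 and 1214) and 535 bp without (quartiles 433 and 755.5). A wide peak has more room to meet a MeDIP peak. The share with a MeDIP peak was 17.2% of peaks under 400 bp (interval 15.1 to 19.5), 28.1% of those of 500 to 599 bp and 53.9% of those of 1000 to 1499 bp. It was 80.1% of the 151 peaks of 3000 bp or more (interval 73.1 to 85.7). Outside the dense ends the group medians were 606 and 508 bp, closer together than within the dense ends, where they were 1110 and 946 bp. Covered length did not keep up with width: an overlapping peak of 400 to 499 bp was wholly covered at the median, and one of 3000 bp or more was covered for 70.4%. The median width was larger with a MeDIP peak on 21 of the 22 chromosomes, and chromosome 17, with 566.5 against 585 bp, was the exception.

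The ORCA score was higher in methylated DNA, and the size of this difference varied with peak width. The median score percentile was 64.4 with a MeDIP peak and 43.3 without. At equal width the 2 groups were closer. Among peaks under 400 bp the median was 24.2 with and 26.0 without, the one class in which it was lower with a MeDIP peak. It was 35.4 and 33.2 at 400 to 499 bp, 67.5 and 58.7 at 750 to 999 bp, and 98.03 and 96.5 at 3000 bp or more. From the lowest to the highest of 5 equal parts by score, the share with a MeDIP peak went from 23.7% to 57.3%, and the median width of overlapping peaks from 500.5 to 1397 bp.

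Peaks in methylated DNA coincided more often with an ORCA peak of a later stage, a readout that the split did not use. Of all early peaks, 32.5% overlapped a mid G1 peak and 8.86% a late one. With a MeDIP peak, 2073 of 3753 early peaks overlapped a mid G1 peak (55.2%, interval 53.6 to 56.8), and without one 1388 of 6887 did (20.2%, interval 19.2 to 21.1). The difference was 35.1 percentage points (95% Newcombe interval 33.2 to 36.9). It was 26.1 points outside the dense ends (interval 23.9 to 28.4) and 33.3 points within them. The share was higher with a MeDIP peak on 22 of 22 chromosomes. On chromosome 13 the shares were close, 26.0% of 73 peaks with a MeDIP peak and 22.9% of 35 without. For late G1, a much shorter list whose name marks the caller with another number than that of the early list, the shares were 15.0% and 5.53%, a difference of 9.44 points (interval 8.20 to 10.7).

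This difference was present at equal width. Among early peaks of 400 to 499 bp, 27.1% of the 608 with a MeDIP peak overlapped a mid G1 peak, against 10.2% of the 2037 without. Among those of 750 to 999 bp it was 61.2% of 621 against 30.3% of 870. At 3000 bp or more the shares were 90.9% of 121 and 80.0% of 30, and their intervals overlap. Weighted to the widths of all early peaks in 9 classes, the difference was 22.4 points for mid and 4.36 points for late G1. It was also present within parts of the list by score: in the lowest of 5 parts 30.4% against 11.5% overlapped a mid G1 peak, and in the highest 81.5% against 57.3%. The highest part is broad, with scores from 90.47 to 3100, and its median widths were 1397 bp with and 944 bp without a MeDIP peak. With the widest 5% of each list left out, the mid G1 difference was 17.2 points. No test between groups was run, since each stage is 1 sample.

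**Figure D4:**
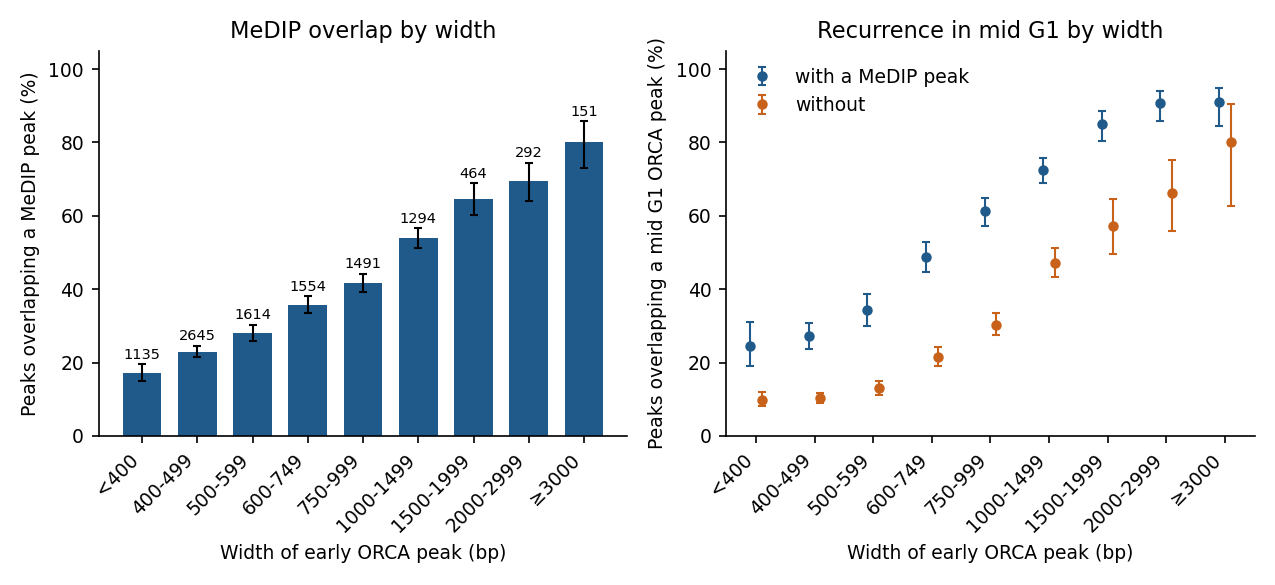
Left, share of early ORCA peaks with a MeDIP peak by width of the ORCA peak, with the number of peaks above each bar. Right, share that overlaps a mid G1 ORCA peak, for peaks with and without a MeDIP peak, by the same width classes in bp. Error bars are 95% Wilson intervals, and the points with a MeDIP peak lie above the others in each class, from 24.6% against 9.79% in the narrowest to 90.9% against 80.0% in the widest.

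Split by stage, the early peaks seen at no later stage had a MeDIP peak least often. A MeDIP peak was present at 1620 of 7049 early peaks with no mid or late peak (22.98%, interval 22.02 to 23.98). It was present at 1571 of 2648 with a mid peak (59.3%, interval 57.4 to 61.2) and at 502 of 813 with both (61.7%, interval 58.4 to 65.0). The 130 with a late but no mid peak lay between, at 46.2% (interval 37.8 to 54.7). The MeDIP peaks met by ORCA also ranked differently: their median percentile was 73.9 where ORCA was seen in early G1 alone and 92.1 where it was seen at all 3 stages. Of the early-only peaks without overlap, the median gap was 13570 bp, against 4300 bp for those of all stages. The early peaks of these classes also differed in width. Their medians were 517 bp for early only, 858 bp with a mid but no late peak and 1062 bp with both. This split by stage was not repeated at equal width.

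Seen from the methylated side, ORCA met a small part of the sites, and more often those of high score. Of 73054 MeDIP peaks, 3420 overlapped an early ORCA peak (4.68%). In bases, the 2.87 Mb shared were 33.5% of the 8.57 Mb in ORCA peaks and 3.70% of the 77.6 Mb in MeDIP peaks. The MeDIP peaks with ORCA had a median score percentile of 77.5 (interval 76.1 to 78.8) and a median width of 1375 bp, against 48.8 and 821 bp for those without. Of the ORCA peaks that overlapped, 2089 (55.7%) met a MeDIP peak of the highest of 5 parts by score, and 247 (6.58%) met only peaks of the lowest part. The median MeDIP percentile at overlapping ORCA peaks was above 50 on each of the 22 chromosomes.

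The share of MeDIP peaks with ORCA was 2.03% in the lowest and 10.9% in the highest of the 5 parts. Outside the dense ends of chromosomes 7 and 8 it went from 1.47% (interval 1.29 to 1.68) to 7.93% (interval 7.49 to 8.39), and within them from 35.6% (interval 29.8 to 41.8) to 74.6% (interval 71.1 to 77.8). MeDIP peaks of high score were also wide, with a median of 1597 bp in the highest part and 613 bp in the lowest. At equal width the difference in score rank was smaller. It was 15.8 percentile points among MeDIP peaks of 500 to 749 bp and 3.91 among those of 1000 to 1499 bp, against 28.7 over all widths. Of MeDIP peaks of 3000 bp or more, 64.9% with and 66.8% without ORCA had a score of 3100 or more. In the whole MeDIP list 5296 of the 5538 peaks with such a score had exactly 3100. Tied scores leave little room for a difference in rank at 3000 bp or more. The difference was already small, 0.546 points, among MeDIP peaks of 2000 to 2999 bp. There 37.3% with and 35.7% without ORCA had such a score. What part ties play in this was not tested.

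**Figure D5:**
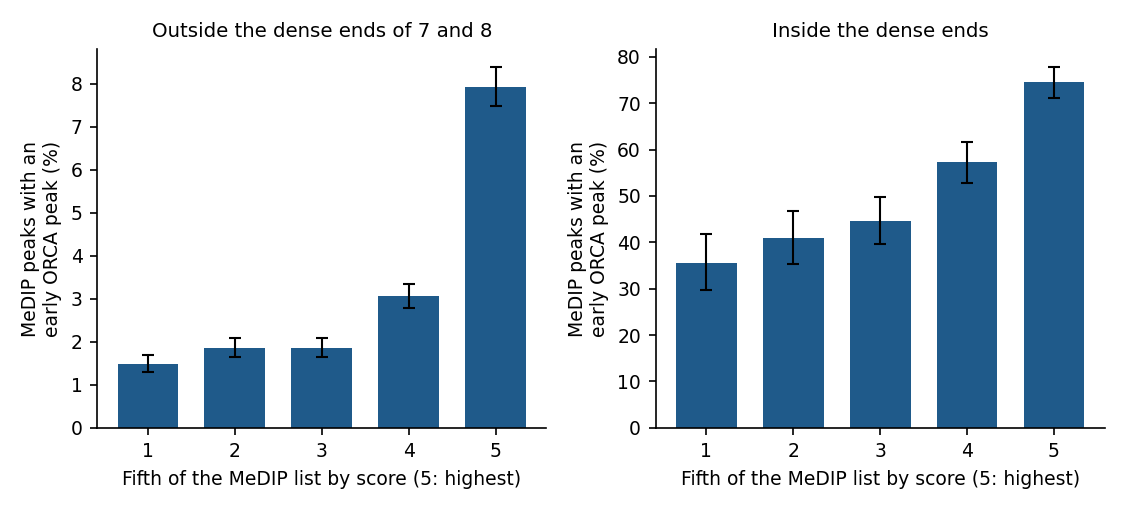
Share of MeDIP peaks with an early ORCA peak, in percent, in 5 equal parts of the MeDIP list by score (5 is the highest), outside and inside the dense ends of chromosomes 7 and 8. Error bars are 95% Wilson intervals, the vertical scales differ, and the highest part reaches 7.93% outside and 74.6% inside.

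Coverage rose with the score of the MeDIP peak too. Overlapping ORCA peaks whose best MeDIP peak was in the lowest part by score had a median of 48.9% of their length covered, and those whose best was in the highest part had 100%. Of the former 37.7% and of the latter 66.4% also overlapped a mid G1 peak, while the median widths of these ORCA peaks were 702 and 778 bp. The MeDIP peaks differed more in width, with medians of 613 bp in the lowest and 1597 bp in the highest part of the list. A wide MeDIP peak has more room to cover an ORCA peak, and coverage at equal MeDIP width was not tested.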

How the data were processed

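The series holds 8 samples of U2OS cells in 8 groups of 1, grouped by title: ORCA ChIP-seq at early, mid and late G1, MeDIP-seq, and 4 inputs. The submitters' processing notes name Trimmomatic, Bowtie 0.12.7, GRCh37 and hg19. The authors deposited 1 peak list per immunoprecipitated sample, with start, end and the caller's score per peak, which was at least 50. The peak names point to MACS, and the late list is named with a different caller number from the other ORCA lists, whose meaning is unstated. For its version, settings and control, and for the read depth, the sources used here give nothing. Scores were compared only within a list.

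Peaks on chromosomes 1 to 22 were kept, which left out 100 early and 2501 MeDIP peaks. Overlap meant 1 bp or more, and a gap was the bases between edges. Shares carry 95% Wilson or Newcombe intervals and medians order-statistic intervals. The code was tested on simulated data: 3546 of 3546 planted overlaps and 7094 of 7094 planted gaps among 10640 simulated early peaks were recovered. With 1 sample per group no test between groups was run. Named regions were the 10 best by mean rank, 5 per further rule and 3 on each side of the threshold, with ties by position. In addition, chromosome parts and bins were picked after their values were seen. The dense ends, runs, members and rules were chosen with earlier results of these data known. Location relative to genes, sequence content and the gene lists were not analysed here, for want of an hg19 sequence or annotation in use. Calculations used Python 3.11.15, numpy 2.4.6, pandas 2.3.3 and scipy 1.17.1.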

Additional observations from a re-analysis of the deposited data

Results flagged for a closer look

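Peaks outside the chromosomes compared were seen in the early ORCA list. It held 26 peaks on chromosome X, above the 3 counts that a count of 0 allows, of which 10 overlapped one of 1443 MeDIP peaks there. It held 74 peaks on chromosome Y, of which 2 overlapped one of 120 MeDIP peaks. No cause was tested for either.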

How the results depend on the processing

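Each of 7 values was recomputed under 11 alternatives, of which leaving out each chromosome gives a lowest and a highest value: the share of early ORCA peaks with a MeDIP peak (35.3%), the median gap of the others (11395 bp), the median covered share of overlapping peaks (94.0%), and the differences, with minus without, in median width (238 bp), ORCA score percentile (21.02), MeDIP score percentile (28.7) and mid G1 share (35.1 points). No difference changed sign, and 31 of 84 values stayed within the interval of the reported one. In the same order, the others were as follows. An overlap of 50% of the shorter peak gave 29.6%, 8842 bp, 100% and a MeDIP difference of 32.1. Peaks within 1 kb gave 44.6%, 16874 bp, 74.2%, 205 bp, MeDIP 21.4 and mid G1 33.0. The midpoint gave 27.5%, 7916 bp, 100%, 197.5 bp, ORCA 19.0 and MeDIP 34.0. The upper part of the MeDIP list by score gave 28.3%, 21003 bp, 100%, MeDIP 11.6 and mid G1 37.8. The upper part of the early list gave 44.6%, 8395.5 bp, 88.2%, 352.5 bp, ORCA 9.75 and MeDIP 30.6. Without the widest 5% of each list the values were 23.3%, 9060 bp, 77.3%, 159 bp, 13.7, 21.2 and 17.2. Without the dense ends they were 27.8%, 14232 bp, 99.8%, 98 bp, ORCA 13.7 and mid G1 26.1. Joined peaks gave 28.0%, 19265 bp, 59.9%, 478.5 bp, ORCA 26.5 and MeDIP 22.8. Chromosome X and the runs moved none of the 7 values past its interval. With each chromosome left out in turn, the values outside the interval were, without chromosome 7, 31.4%, 12570 bp, 98.4%, 157 bp, ORCA 17.1 and mid G1 30.1. Without chromosome 8 they were 33.3%, 193 bp and mid G1 33.1, without chromosome 22 a gap of 12558 bp and without chromosome 17 a width difference of 272 bp. Cut lists and stricter overlaps change by construction how many peaks can meet, and no other cause was tested. Location relative to genes was not run. Without read depth, a peak that is missing from a list is not shown to be unbound or unmethylated.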
